A study of Mus musculus with 9 samples.

Results

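The cytosolic ribosomal protein genes encode the protein part of the ribosomes that translate nuclear messages. The members were all symbols of the molecules table starting with Rpl or Rps and a digit, with Rplp0, Rplp1, Rplp2, Rpsa and Fau, leaving out pseudogene symbols and the Rps6k kinases. This gave 87 of the 23530 symbols, 52 of the large and 35 of the small subunit. By name, 1 of them, Rps19bp1, is a binding partner of a ribosomal protein and not a ribosomal protein. Another, Rps4y2, is a RefSeq synonym of Rps4l, which GENCODE M21 lists as a transcribed processed pseudogene. The choice by symbol used no measured value, but the members were chosen with earlier results of these data known.

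The data come from 9 single cells of the paraventricular nucleus, a neuroendocrine region of the mouse hypothalamus. All 9 carry the same label, secretagogin-positive, after the calcium-binding protein secretagogin, and came from C57Bl6/N mice aged 21 to 28 days, with no genotype or treatment named. No animal is given for any cell. The 9 cells were therefore treated as 1 sample, the cells are not replicates, and no p-value was computed. The 95% intervals below are exact and reflect only the error of counting.

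A ribosome holds, with few exceptions, 1 copy of each ribosomal protein, made from genes scattered over the genome. The messages of these genes begin with a terminal oligopyrimidine tract, a C followed by a run of C and T, through which growth signals acting on mTOR and the RNA-binding protein LARP1 set their translation. They are short, stable and among the most abundant messages of most cells. In neurons they are also found in dendrites and axons.

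The start sites of the most abundant members are shown because this tract is a known feature of their messages, although other genes carry it too. RefSeq promoter windows (GRCm38.p6) were matched to 66 of the 87 members, and of the 10 members with most molecules these 6 had one. Each line gives 20 bases before and 15 bases after the annotated start, 5′ to 3′ on the gene's strand. Capitals mark a run that begins with a C at the start itself and goes on for at least 4 bases that are each C or T. Shorter runs are not marked.
Rps6, chr4:86857353-86857387, minus strand: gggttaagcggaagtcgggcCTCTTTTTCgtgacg
Rps28, chr17:33824548-33824582, minus strand: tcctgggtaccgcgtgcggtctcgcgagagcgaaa
Rps3, chr7:99483695-99483729, minus strand: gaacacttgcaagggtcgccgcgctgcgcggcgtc
Fau, chr19:6057927-6057961, plus strand: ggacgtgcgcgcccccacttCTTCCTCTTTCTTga
Rps3a1, chr3:86142654-86142688, minus strand: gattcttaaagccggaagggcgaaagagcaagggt
Rpl35, chr2:39005117-39005151, minus strand: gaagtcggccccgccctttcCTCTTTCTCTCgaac

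The annotated starts of Rps6, Fau and Rpl35 opened with runs of 9, 13 and 11 pyrimidines. Those of Rps28, Rps3 and Rps3a1 had no run long enough to be marked. A C at the annotated start followed by at least 4 bases that are each C or T was found in 14 of the 66 members (21.2%), against 799 of 26959 other genes of the table (2.96%). When the run could begin anywhere within 10 bases of the start, it was found in 40 members (60.6%), against 34.3% of the other genes. The letters CCGGAAG, a core recognised by ETS factors such as GABPA, were present on either strand of the 300-base window in 26 members (39.4%) and 9.86% of the others. AAGATGGC, a core recognised by YY1, was present in 7 members (10.6%) and 3.17% of the others. TATAAA was present in 7 members (10.6%) and 15.7% of the others. In 2 members, matches of different motifs overlapped. Members with the run at the start had a median of 60 molecules (n = 14), and those without had 28 (n = 52). These matches describe the letters of the annotated windows only.

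The depth of the cells set what could be seen. Gene molecules per cell ranged from 1021 in cell 1 and 3393 in cell 6 to 26466 in cell 5, with a median of 9573. The spike-in totals lay between 1962 and 2184 molecules for the first 8 cells and at 614 for cell 9, the only cell whose column name gives lane 4. Markers of other cell types were high in 4 cells. Blood markers gave 2507 molecules and endothelial markers 115 in cell 4, oligodendrocyte markers 412 in cell 5, endothelial markers 52 in cell 7, and ependymal markers 303 and astrocyte markers 29 in cell 8. In cells 1, 2, 3, 6 and 9 each of these lists gave at most 3 molecules. The neuron markers gave 35 to 264 molecules per cell, and all 5 microglial markers were at 0.

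Ribosomal protein messages were a few percent of all molecules in 7 cells and nearly missing in the other 2. The shares were 0.686% in cell 1 (interval 0.276 to 1.41%) and 0.442% in cell 6 (0.248 to 0.728%). For cells 2, 3, 4, 5, 7, 8 and 9 the shares, in that order, were 3.75, 5.00, 3.42, 5.56, 2.79, 4.58 and 4.08%. The intervals of cells 1 and 6 lay below those of all 7 other cells, whose mean was 4.17% ± 0.951 (SD, n = 7 cells). In counts, cell 1 held 7 and cell 6 held 15 ribosomal protein molecules. At the pooled share of the 7 other cells, 4.49%, their totals would have given 45.8 and 152, so the measured shares were 6.54-fold and 10.15-fold lower. The median over all 9 cells was 3.75%, and the 9 cells together held 3922 ribosomal protein molecules, of which 37.5% lay in cell 5.

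**Figure D1:**
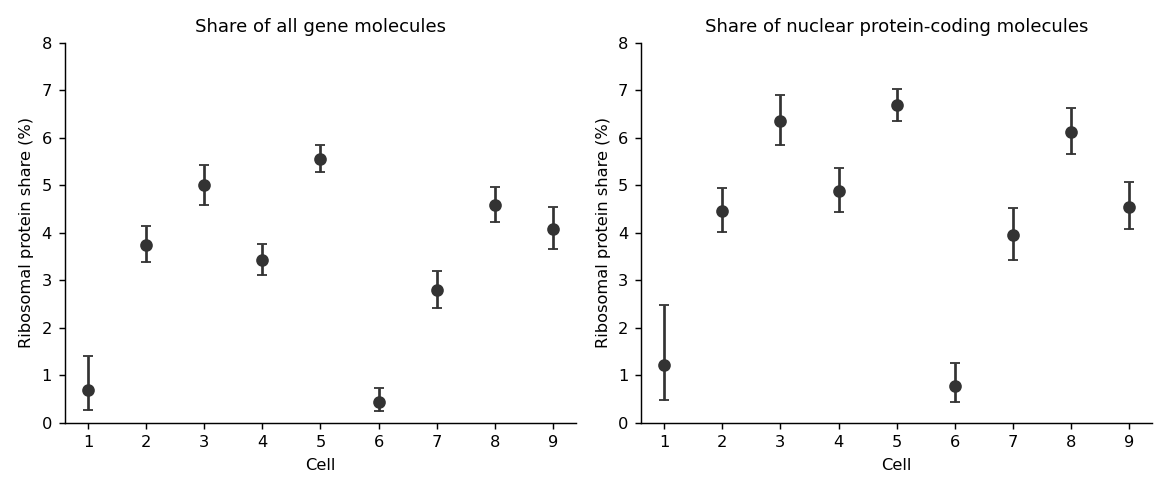
Ribosomal protein molecules as a percentage of all gene molecules (left) and of nuclear protein-coding molecules (right) in each of the 9 cells; points are the measured shares and bars the exact 95% binomial intervals. Cells 1 and 6 lie at 0.686% and 0.442% on the left, and the other cells at 2.79% to 5.56%.

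Of 3 other RNA classes, 1 separated both low cells from the rest. Mitochondrial genes took 19.9% of molecules in cell 1 and 34.25% in cell 6, against 4.31 to 22.6% in the other cells. The nuclear RNAs Malat1 and Meg3 together took 17.6% in cell 1 and 3.98% in cell 6, against 0.486 to 10.8% in the others. Each of these classes was highest in 1 of the low cells and within the range of the other 7 cells in the other. Nuclear protein-coding genes took 56.8% and 57.65% in cells 1 and 6, against 70.1 to 89.6% in the others. Depth moved with the share too, as cells 1 and 6 were the shallowest. The part of these RNA classes and of depth in the low shares was not tested.

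Relative to nuclear protein-coding molecules alone, the ribosomal protein share was still 1.21% in cell 1 (interval 0.487 to 2.47%) and 0.767% in cell 6 (0.430 to 1.26%). The other cells held 3.95 to 6.69% on this scale, with the lowest lower bound at 3.43%. A change of the total to coding messages thus left cells 1 and 6 below the rest. Per 100 spike-in molecules, cells 1 and 6 held 0.345 and 0.744 ribosomal protein molecules, and the others 9.64 to 67.4. Cell 9, whose spike-in total was the smallest, was at 51.95.

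Among the 7 cells other than 1 and 6, the share differed beyond counting error. Cell 5, the deepest, had the highest share (interval 5.285 to 5.84%), and cell 7 the lowest (2.42 to 3.20%). The place of cell 4 changed with the total used. Its blood marker genes held 3646 molecules when all numbered locus rows of a symbol are summed. Without them its share was 4.91% in place of 3.42%, and 8.60% of the remaining coding molecules, the highest of any cell. Cells 4, 5, 7 and 8, with markers of another cell type, spanned 2.79 to 5.56%, and cells 2, 3 and 9, without them, 3.75 to 5.00%. The part of these other cell types in the shares was not tested.

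The 22 ribosomal protein molecules of cells 1 and 6 came from 13 members. Of the 73 members with at least 9 molecules, 70 had a lower level in cells 1 and 6 pooled than in the other 7 cells pooled, and the exceptions were Rpl10a, Rpl23 and Rplp0. Over all 2061 symbols with at least 9 molecules the share that was lower was 74.4%. At the depth of these cells a member with few molecules has a count of 0 either way, so the count of 70 does not show the deficit gene by gene. Cell 1 held 3 molecules of Rpl23, which sits near the catalytic face of the large subunit, and 1 each of Rpl10a, Rpl24, Rpl41 and Rplp2, and no small-subunit molecule. Among the molecules of cell 6 were 2 each of Rpl13, Rpl41 and Rps3a1, and 1 each of Rpl24, Rpl32, Rpl35a, Rplp0, Rps25 and Rpsa.

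Most members were detected in most cells at the depth of these libraries. With at least 1 molecule as the criterion, 68 of the 87 members (78.2%) were detected in at least 5 of 9 cells, against 7.00% of all 23530 symbols. The count was 45 when detection asked for 3 molecules, and 14.35 on average when every cell was thinned to the depth of the shallowest. The share of all symbols was not computed at these settings, so the 7.00% is no measure for them. In the 7 cells other than 1 and 6, 48 members (55.2%) were detected in every cell, against 1.25% of all symbols. Only Rpl24 and Rpl41 were detected in all 9 cells (2.30%), against 0.195% of all symbols. The members detected per cell were 5 in cell 1 and 10 in cell 6, and 60 to 79 in the others. No molecule was counted for 5 members (5.75%), against 58.6% of all symbols: Rpl26, Rpl34, Rpl3l, Rpl10l and Rpl39l. A further 9 members had 1 to 8 molecules, 40 had 9 to 44, and 33 had at least 45.

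**Figure D2:**
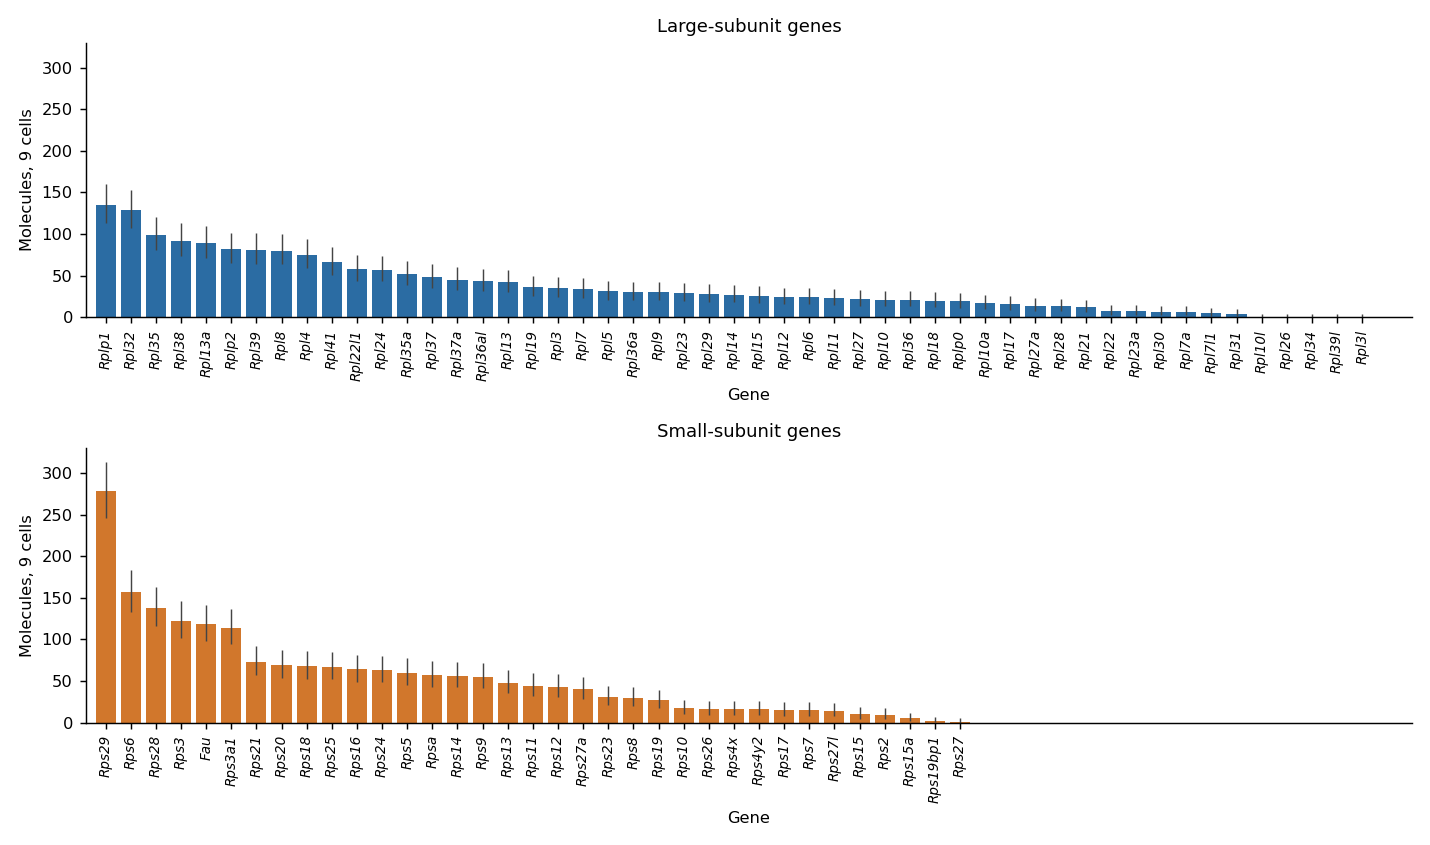
Molecules summed over the 9 cells for the large-subunit members (top) and the small-subunit members (bottom) reported here, in falling order; bars are counts and lines exact 95% Poisson intervals. Rps29 stands at 278 molecules, and the next gene, Rps6, at 157.

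The subunits held nearly equal molecule totals, although not equal counts per gene. Large-subunit genes held 1964 molecules and small-subunit genes 1958, a ratio of 1.00. In the 7 cells other than 1 and 6 the ratio ran from 0.905 in cell 7 to 1.12 in cell 2, and the interval of the large-subunit percentage included 50% in each of them. Cell 6 had 11 large-subunit and 4 small-subunit molecules, and cell 1 had 7 and 0. With 7 molecules, the interval of the large-subunit share of cell 1 reaches down to 59.0%. The median count was 27.5 molecules per large-subunit gene and 44 per small-subunit gene. The 52 large-subunit symbols include all but 2 of the paralogs (Rps27l and Rps4y2) and all 5 members at 0.

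With few exceptions ribosomal proteins are used in equal numbers, but the molecule counts of the members spread widely. The counts at the 90th and 10th percentiles of the members were 101 and 5 molecules, a fold of 20.2, and per kb of the reference transcript the values were 162 and 7.31, a fold of 22.2. Spearman's rho of the counts was −0.02 with transcript length over the 87 members and −0.12 with coding length over 86, a description over genes that share the same 9 libraries. The annotated transcripts of some members are long, up to 3706 bases for Rps20 against a median of 729, and the sources used here do not say whether molecules were counted at one end, so values per kb are a second scale only. The 10 most abundant members held 35.5% of all ribosomal protein molecules.

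Rps29, a zinc-binding protein of the head of the small subunit, was the most abundant member (chromosome 12, 69157722 to 69159186, minus strand, GRCm38). It had 278 molecules, or 713 per kb of transcript, the highest on both scales. Its levels for cells 1 to 9, in order of number, were 0, 32.4, 28.9, 28.3, 38.9, 0, 22.3, 31.9 and 26.8 molecules per 10000. The 7 positive cells lay close together, at 29.9 ± 5.19 (SD, n = 7 cells), and in each of them Rps29 was the leading ribosomal protein gene. The limit that a count of 0 allows (3 molecules) was 8.84 per 10000 in cell 6, below all 7 positive cells, but 29.4 in cell 1, within their range. The level of Rps29 among all molecules is therefore below the others in cell 6, while in cell 1 a difference was not detectable at this depth. Of the 15 ribosomal protein molecules of cell 6, 1.07 would be Rps29 at its share of the group in the 7 positive cells. The count of 0 thus shows no loss of Rps29 beyond that of the whole group.

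Rps6, the small-subunit protein phosphorylated by the S6 kinases downstream of mTOR, had 157 molecules (chromosome 4, 86854660 to 86857412, minus strand). From cell 1 to cell 9 the levels were 0, 6.27, 14.9, 11.6, 29.8, 0, 14.0, 15.2 and 15.3 per 10000. Cell 5 was highest. Its interval, 23.6 to 37.2 per 10000, lay above those of cells 2, 4 and 8, which ended at 13.6, 19.5 and 23.4, and overlapped those of cells 3, 7 and 9. Rps6 had the highest dispersion index of the members, 5.29, a measure explained with the variation between cells.

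Rps28, a small protein of the head, had 138 molecules (chromosome 17), with 8.36, 19.6, 9.15, 22.7, 6.98, 15.2 and 16.6 per 10000 for cells 2, 3, 4, 5, 7, 8 and 9. Rps3, at the site where messages enter the small subunit, had 122 (chromosome 7), with 9.40, 19.6, 14.1, 16.6, 8.38, 12.9 and 10.2 in the same cells. Neither gene had a molecule in cells 1 and 6, and both were lowest of the remaining cells in cell 7. Fau, which encodes a ubiquitin-like protein fused to a small-subunit protein, had 118 (chromosome 19), with 12.5, 13.0, 4.99, 16.6, 6.98, 16.7 and 19.2 in those 7 cells. Its highest level was in cell 9 and its lowest in cell 4, whose intervals of 10.7 to 31.6 and 1.83 to 10.9 overlapped slightly.

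Rps3a1, another small-subunit protein, had 114 molecules (chromosome 3), and from cell 1 to cell 9 its levels were 0, 8.36, 25.2, 10.8, 13.6, 5.89, 5.59, 13.7 and 7.67 per 10000. It was among the few members seen in cell 6, at 5.89 from 2 molecules. Rpl32 and Rpl35, which encode large-subunit proteins, had 129 and 99 molecules. The molecules of Rpl32 in cells 1 to 9 were 0, 8, 14, 16, 47, 1, 5, 20 and 18. It was highest in cell 9, at 23.0 per 10000 (interval 13.6 to 36.4), and lowest of the 7 cells in cell 7, at 6.98. Rpl35, at the rim of the peptide exit tunnel, had 0, 12, 8, 8, 31, 0, 11, 21 and 8 molecules and stayed between 6.65 and 15.9 per 10000 in the 7 cells.

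**Figure D3:**
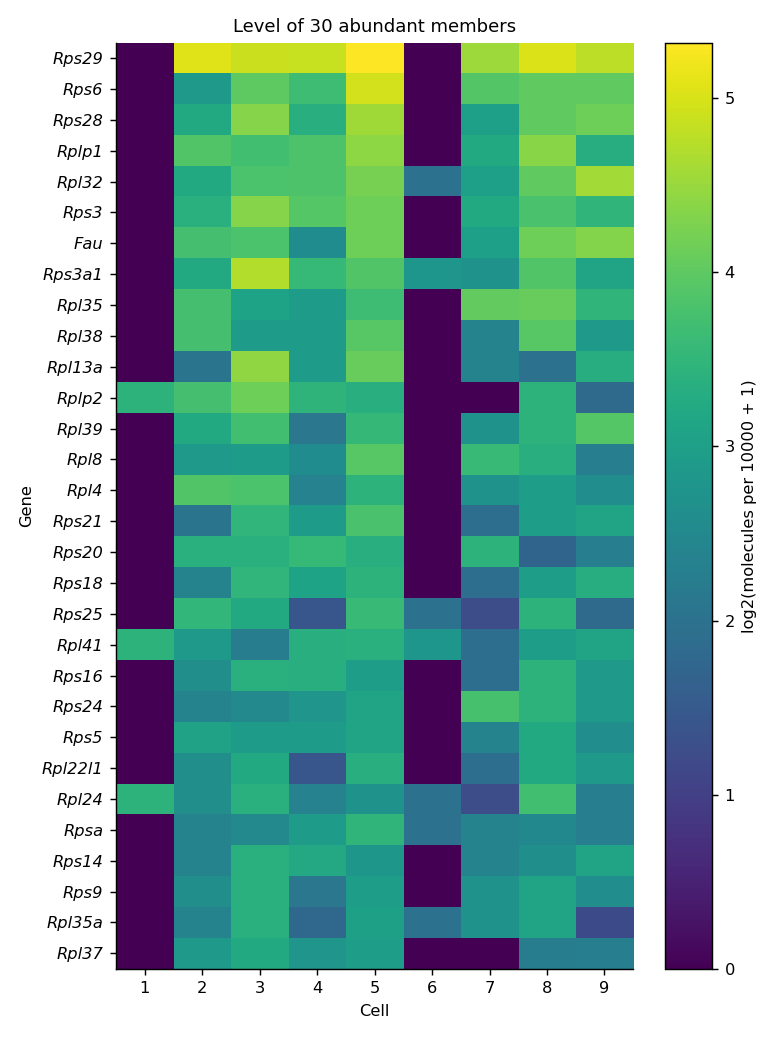
Levels of 30 abundant members in each of the 9 cells, as log2(molecules per 10000 + 1); rows are genes in falling order of total and columns are cells. Rps29 is the brightest row in 7 cells, cells 1 and 6 are dark in most rows, and a single molecule in cell 1 already gives 9.79 per 10000.

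The counts of the acidic stalk, which recruits elongation factors to the large subunit, were uneven. Rplp1 had 135 molecules and Rplp2 had 82, and Rplp0, the base on which they sit, had 19. Per kb of transcript the values were 270 for Rplp1 and 195 for Rplp2, and 14.0 for Rplp0. In cells 1 to 9 Rplp1 had 0, 13, 13, 16, 54, 0, 6, 26 and 7 molecules, which is 8.38 to 20.4 per 10000 in the 7 cells. Rplp2 had 1, 12, 18, 12, 24, 0, 0, 13 and 2 molecules. Its level was 16.8 in cell 3 and 2.55 in cell 9, and had none in cell 7, where the limit for a count of 0 was 4.19. Rplp0, with 0, 0, 0, 1, 8, 1, 2, 6 and 1 molecules, had none in the first 3 cells, of which cell 1 held only 7 ribosomal protein molecules. It has 3 annotated near-identical copies without a row, so its low count is uncertain. Rpl12, which lies beside the stalk base, had 24 molecules, and the 4 genes together took 6.63% of the ribosomal protein molecules.

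Rpl5 and Rpl11, which join the 5S ribosomal RNA and, outside the ribosome, bind the p53 inhibitor MDM2, had 31 and 23 molecules. Rpl5 had 9 of its molecules in cell 2, or 9.40 per 10000 (interval 4.30 to 17.9), and 1.28 to 3.78 per 10000 in cells 3, 4, 5, 7, 8 and 9. Neither Rpl5 nor Rpl11 had a molecule in cells 1 and 6. From cell 1 to cell 9 Rpl11 had 0, 0, 2, 1, 13, 0, 2, 2 and 3 molecules. The level of Rpl5 was highest in cell 2, and that of Rpl11 in cell 5, at 4.91 per 10000 (interval 2.615 to 8.40). Both intervals overlapped those of other cells, as for Rpl5 in cell 5 (1.81 to 6.95) and Rpl11 in cell 9 (0.790 to 11.2). A difference between the pair beyond counting error is therefore not shown.

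The head of the small subunit held the most molecules of the 4 structural groups described, and its list was also the longest. Its 14 listed genes held 1018 molecules, 26.0% of the total, of which Rps29 alone gave 278. The median was 62 per gene. Of the 14 genes, 13 were detected in at least 5 cells, against 78.2% of all members and 7.00% of all symbols. Within the 7 cells the head genes took 23.5 to 27.9% of the ribosomal protein molecules. They held 1 molecule in cell 6 and 0 in cell 1. The exit tunnel group, with 8 genes, held 318 molecules (8.11%), from 99 for Rpl35 to 0 for Rpl26. It took 5.35 to 11.1% of the ribosomal protein molecules in the 7 cells.

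Among the other members fixed for description, Rpl41 encodes the smallest protein of the ribosome. It had 66 molecules and was present in all 9 cells, which from cell 1 to cell 9 had 9.79, 6.27, 3.73, 9.15, 9.45, 5.89, 2.79, 6.83 and 7.67 per 10000. The values of cells 1 and 6 rest on 1 and 2 molecules. Rpl24, the other gene found in every cell, had 57 molecules, split over cells 1 to 9 as 1, 5, 10, 5, 15, 1, 1, 16 and 3. Its levels reached from 1.40 per 10000 in cell 7 to 12.1 in cell 8, apart from the single molecule of cell 1. Rpsa, also known as the laminin receptor precursor, also had 57 molecules and none in cell 1. It was highest in cell 5, at 10.2 per 10000, with 4.18 to 6.65 in cells 2, 3, 4, 7 and 8, 3.83 in cell 9 and 2.95 in cell 6. Rps27a, made as a fusion with ubiquitin, had 40 molecules, with 0, 6, 3, 1, 19, 0, 1, 8 and 2 from cell 1 to cell 9. Cell 5, the deepest, held 19 of them, at a level of 7.18 per 10000 (interval 4.32 to 11.2). Cells 2 and 8 were close, at 6.27 and 6.07, and cells 3, 4, 7 and 9 lay at 0.832 to 2.80.

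Variation between cells was measured by a dispersion index, the mean squared deviation of the counts from equal shares of each cell's total, divided by the count that equal shares give. Its mean is 1 for counting noise alone. The 73 members with at least 9 molecules had a median of 1.60, against 1.93 for all 2061 symbols with as many. Of these members 19 (26.0%) lay above 2, against 48.1% of those symbols. Among symbols with at least 45 molecules, 14 of the 33 members lay above 2, against 86.0% of all 250. The members' medians beside the whole were 1.79 and 3.84 at this depth.

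When counts were set against equal shares of each cell's ribosomal protein molecules, the median index of the members was 1.17. This scale removes the level of the whole group and leaves its composition. Of the 73 members, 12 lay above 2, a count with no counterpart over all symbols on this scale. The highest, Rpl23 at 22.3, Rpl13 at 5.04 and Rpl10a at 4.00, rest on 1 to 3 molecules in cell 1 or 6. In the 7 other cells alone they were at 1.82, 3.32 and 0.153. Of the members with at least 45 molecules, high values were those of Rpl41 at 3.08, Rplp2 at 2.80, Rpl13a at 2.69, Rpl24 at 2.65 and Rps3a1 at 2.21. Several of these values rest on single molecules in cells 1 and 6. Without these cells Rpl41 fell to 1.02, Rpl24 to 1.79 and Rps3a1 to 1.99, while Rplp2 was at 2.87 and Rpl13a at 3.48. Rpl13a, which in human monocytes can leave the ribosome to silence messages, had 0, 3, 22, 8, 42, 0, 3, 4 and 7 molecules in cells 1 to 9. This gave 20.5 per 10000 in cell 3 (interval 12.8 to 31.0) and 15.9 in cell 5 (11.4 to 21.4), and 3.04 to 8.94 in cells 2, 4, 7, 8 and 9.

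**Figure D4:**
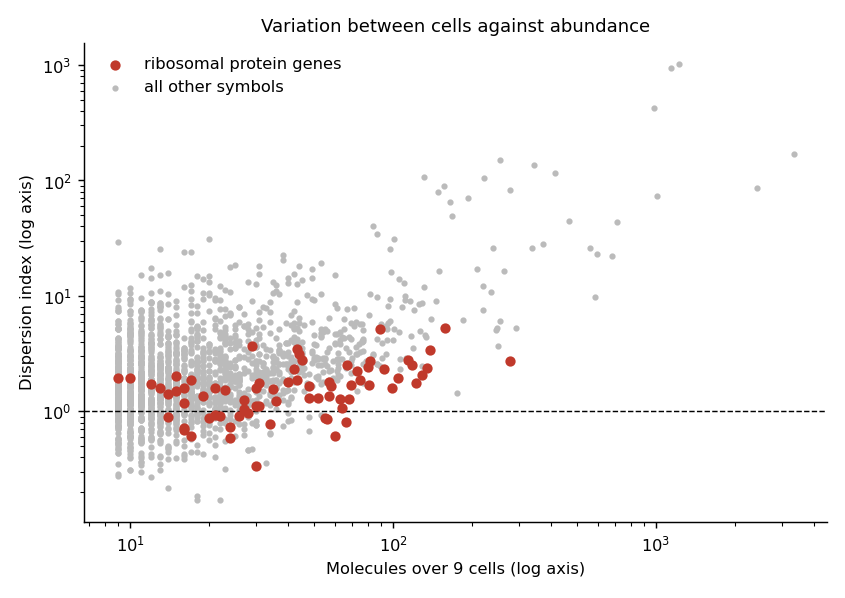
Dispersion index against the molecules summed over 9 cells for symbols with at least 9 molecules, both on log axes; red points are the 73 ribosomal protein genes, grey points all other symbols, and the dashed line is an index of 1. The members lie at 0.337 to 5.29, in the lower part of the cloud at high counts.

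The likeness of the order of members between cells depended on which cells and members were taken. The Spearman correlation across the 87 members reached 0.71 as the median of 21 pairs among the 7 cells, from 0.55 between cells 3 and 7 to 0.84 between cells 5 and 8. With cells 1 and 6 the median over 36 pairs was 0.61 and the lowest −0.07. This median was 0.32 for members with at least 45 molecules, and 0.21 without cells 4, 5, 7 and 8, where 7 of 10 pairs hold cell 1 or 6. Over the 2061 symbols with at least 9 molecules it was 0.15, a set that unlike the 87 members holds no symbol with fewer. Members differ widely in abundance and in depth of coverage, which raises such a correlation, and genes are not independent replicates.

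Several members with few or no molecules had a near-identical copy whose row was well filled. Ribosomal protein genes have left many processed pseudogenes in the mouse genome, and 79 of the 87 members had at least 1 annotated copy with at least 95% identity over at least 80% of the coding sequence. In 6 members the copy row held more molecules than the member's own. Rpl34 had 0 molecules and Rpl34-ps1 on chromosome 6, 99.4% identical, had 54. Rpl26 had 0 and Gm15772 on chromosome 5, 99.5% identical, had 33. Both copies were detected in the 7 cells other than 1 and 6, as the abundant members were.

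Rpl31 had 4 molecules and Rpl31-ps12 had 77, Rps15a had 5 and Rps15a-ps4 had 54, Rpl30 had 6 and Gm12191 had 35, and Rps26 had 16 and Gm6654 had 73. The identities were 98.9, 97.7, 99.7 and 97.4%. Rows of copies held 359 molecules in all, equal to 9.15% of the members' total, and none of them had a molecule in cells 1 and 6. The sources used here do not say how reads with several possible origins were placed, so the counts of these 6 members are uncertain and say nothing of absence. The same holds for Rps27, with 1 molecule, for which GENCODE lists a copy of identical coding sequence, Rps27rt, with no row matched here. Only 13 of the 585 annotated copies had a row. Low counts of other members with copies, such as Rpl7a at 6, Rps2 at 9 and Rplp0 at 19, are therefore uncertain too. With the copy rows added, the fold between the 90th and 10th percentiles per kb was 13.9 in place of 22.2.

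**Figure D5:**
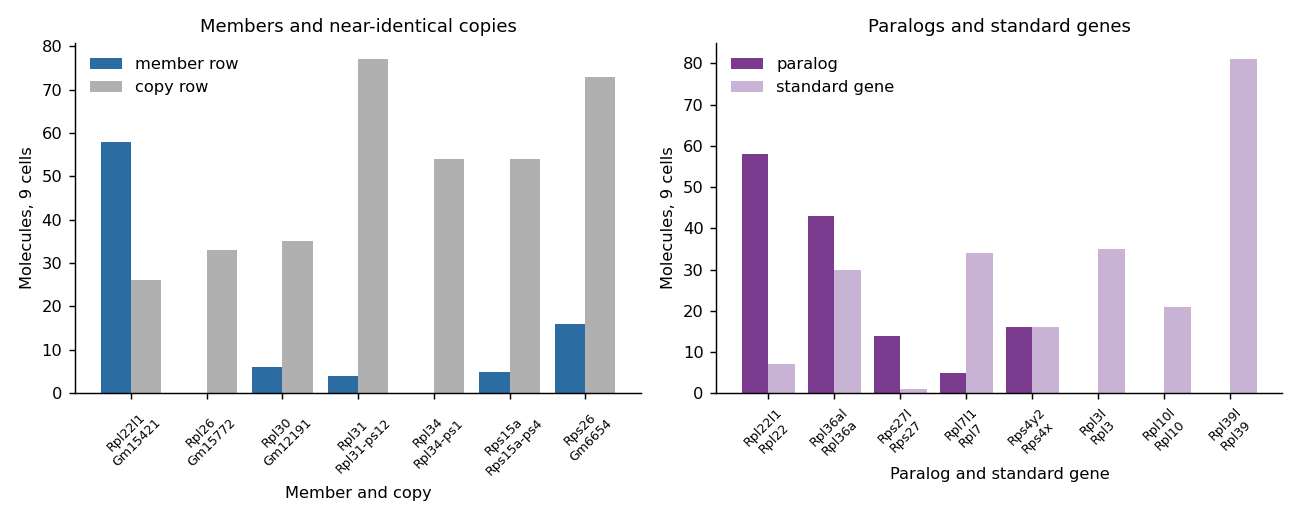
Molecules over 9 cells in the row of a member and in the row of its near-identical copy, for copies with at least 20 molecules (left), and for ribosomal protein paralogs beside the standard gene (right). The copy row is higher in 6 of the 7 pairs, and Rpl22l1, at 58, is higher than Rpl22, at 7.

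Paralogs, each paired here with a standard ribosomal protein gene, fell into those that were present and those that were not. Rpl22l1 had 58 molecules, or 105 per kb, and Rpl22 had 7, or 14.8 per kb. Rpl22l1 was the higher of the pair in 6 cells and equal in 3, and Rpl22 was higher in none. A copy of Rpl22l1 on chromosome 5, Gm15421, held a further 26. Rpl36al had 43 molecules and Rpl36a, its X-linked relative, had 30, with Rpl36al higher in 4 cells and Rpl36a in 2. Rps27l had 14 molecules against 1 for Rps27, a pair to which the uncertainty of Rps27 applies.

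Rpl7l1 had 5 molecules and Rpl7 had 34, higher in 7 cells. Rps4y2, which GENCODE lists as a transcribed processed pseudogene, and the X-linked Rps4x had 16 each. Rpl3l, known from muscle, and Rpl10l and Rpl39l, known from testis, had none, against 35, 21 and 81 for Rpl3, Rpl10 and Rpl39. A count of 0 over all cells allows at most 3 molecules in 91370.

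Other genes of the pathway were followed as lists, chosen like the members with earlier results known. The list of further genes with a terminal oligopyrimidine start had 19 of its 20 symbols in the table, of which 12 were detected in at least 5 cells, against 7.00% of all symbols. Eef1a1, the elongation factor that delivers transfer RNA, had 96 molecules, and Npm1, a nucleolar assembly factor, had 77. The list took 0.294% of molecules in cell 1 (interval 0.0606 to 0.856%) and 0.265% in cell 6 (0.121 to 0.503%), against 0.307 to 0.729% in the others. Ribosomal proteins were 70.0% of the molecules of both lists together in cell 1 (34.8 to 93.3%) and 62.5% in cell 6 (40.6 to 81.2%), against 85.1 to 92.1% in the other cells. The interval of cell 6 lay wholly below that of 6 cells and overlapped that of cell 9 only slightly, from 81.05%, while that of cell 1 overlapped all.

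The mitochondrial ribosomal proteins, encoded by nuclear genes for the separate ribosome of mitochondria, had 441 molecules over 76 symbols, and 10 symbols were detected in at least 5 cells, against 7.00% of all symbols. They took 0.294% in cell 1 and 0.0884% in cell 6 (0.0182 to 0.258%), against 0.154 to 0.703% in the others, so cells 4 and 7 were within reach of cell 6. Of 23 genes of ribosome assembly, 4 were detected in at least 5 cells and 5 in none, beside 7.00% and 58.6% of all symbols. Ncl, which encodes nucleolin, led with 24 molecules. Of 14 genes that control ribosomal protein synthesis, not 1 reached detection in 5 cells, and 7 had no molecule, shares near the 7.00% and 58.6% of all symbols. Rps6kb1, which encodes the S6 kinase that phosphorylates Rps6, had 11 molecules, of which 5 lay in cell 6. Rps6 itself had none there, with only 0.604 expected from the few ribosomal protein molecules of that cell.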

How the data were processed

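The labels' protocols describe capture of single cells with the Fluidigm C1 system and amplification of their cDNA. Bowtie, without a version, and the build mm10 are listed in the submitters' processing notes. The deposited values are raw whole-number counts in 1 table, called molecules here, with 24378 gene rows and 92 spike-in rows. The sources used here do not state the treatment of duplicate or ambiguous reads or the use of strand. Doublets were not called.

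Columns were assigned to cells by the cell number in their names, with 0 columns left over. For symbols with several numbered loci the largest row per cell was taken, which applied to 0 members. Levels are molecules per 10000 gene molecules. Intervals are exact Poisson or Clopper-Pearson intervals at 95%. For counts of 0 the limit printed is 3 molecules. Transcript lengths and positions came from GENCODE M21 (GRCm38), taking the principal coding transcript. Copies were found with BLAST+ 2.17.0 on transcript sequences. The dispersion index was tested on simulated data. Coding totals used 20013 rows.

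The members and lists were chosen with earlier results of these data known. Named genes were the 10 most abundant members, the stalk, Rpl5, Rpl11, Rps27a, Fau, Rpsa, Rps6, Rpl41, the 6 with the highest index within the group among those with at least 45 molecules, all paralogs and all members at 0. Others were chosen after their values were seen, and 1 gene that the rule names is not reported here. Alternatives covered totals, detection limits, thinning, loci, minimum counts and cells left out. Totals without non-coding RNAs or blood markers and the addition of copy rows were chosen after seeing the data. Scripts ran under Python 3.11.15 (scipy 1.17.1, numpy 2.4.6, matplotlib 3.10.9, pandas 2.3.3).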

Additional observations from a re-analysis of the deposited data

Results flagged for a closer look

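For each of 36 measures, the distance between the extreme cell and its neighbour was divided by the range over the 9 cells, and in 6 the quotient passed 0.493, Dixon's 95% limit, which chance passes in about 1 of 20 groups. Cell 5 held 1471 ribosomal protein molecules, the most of any cell. In cell 1, with 7 such molecules, large-subunit genes made up 100%, the leading gene, Rpl23, 42.9%, and the stalk genes 14.3% from 1 molecule. Rpl5 reached 9.40 per 10000 in cell 2, from 9 molecules. The genes that control ribosomal protein synthesis took 0.206% in cell 6, from 7 molecules.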

How the results depend on the processing

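Of 131 recomputed values of the 8 main results, 118 stayed within a set margin. The margin was the SD over cells for the share and subunit ratio, and over pairs of cells for the correlation. It was 1.5 times for counts, indices and folds. For the share it was wide, 1.79 points over 9 cells against 0.951 over the 7 cells other than 1 and 6. Summing numbered loci could change no result, as 0 members had such rows. Leaving out the lane 4 cell repeated leaving out cell 9. The 118 therefore includes empty and repeated settings. The count of 2 members in all 9 cells was 48 without cells 1 and 6, 2 to 9 without 1 cell, 0 with detection at 2 molecules, 0 at 3, and 0.00298 on average after thinning to the shallowest cell. The 68 members in at least 5 cells were 45 with detection at 3 molecules and 14.35 on average after thinning, and 63 to 68 without 1 cell. Shares of all symbols were not computed for the higher detection limits, for thinning or without 1 cell. The median correlation of 0.61 was 0.21 without cells 4, 5, 7 and 8, where 7 of 10 pairs hold cell 1 or 6, and 0.32 for members with at least 45 molecules. The fold range of 22.2 was 34.3 without cells 4, 5, 7 and 8 and 13.9 with copy rows added, and 21.8 to 27.4 without 1 cell. The median share was 20.95 molecules per 100 spike-ins on that total, another unit. It was 3.58 to 3.91% without 1 cell. No paired analysis was possible because the 9 cells form 1 group. Depth limits every statement on cells 1 and 6, which held 22 ribosomal protein molecules together, and a setting's other causes were not tested.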

Other observations

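Ribosomal protein genes made up 5 of the 50, 13 of the 100 and 29 of the 200 symbols with most molecules, and Rps29 ranked at 18 among all symbols and at 6 outside mitochondrial genes. The members lie on 20 chromosomes, with 14 on chromosome 7, 8 on chromosome 17 and 7 on chromosome 11. The number of annotated near-identical copies, a median of 5 and up to 57 for Rpl21, was hardly related to the molecules counted for a member (Spearman's rho −0.09 over 87 genes of the same libraries). The 8 members without a copy had a median of 15 molecules and the 79 with a copy had 31.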
